A study of Mus musculus and Rattus norvegicus with 53 samples.

Results

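The genes described here are Sox2, Sox4, Sox5, Sox6, Sox8, Sox9, Sox10 and Sox11, 8 members of the SOX family of transcription factors that were taken by symbol from the 24016 genes of the mouse count files. Schwann cells (SCs) were sorted for tdTomato from mice aged 6 to 8 weeks, of both sexes, that carried a Cre transgene active in the SC lineage and a Rosa26 tdTomato reporter, and recombination marks most but not all SCs. Intact SCs (iSCs) came from the uncut sciatic nerve opposite to the transected one, distal SCs (dSCs) from the stump beyond the cut, and bridge SCs (bSCs) from the tissue that joins the stumps. Pooled libraries were made 6 days after transection from the nerves of 3 mice each, with 4 libraries of iSCs, 4 of dSCs and 4 of bSCs. Single-nerve libraries numbered 35, of which 5 were iSCs, 18 were dSCs taken between day 1 and day 10 and 12 were bSCs taken between day 4 and day 10, with 3 libraries per region and day.

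SOX proteins bind the minor groove of DNA through an HMG box and bend it, and most of them act together with a partner factor. Sox8, Sox9 and Sox10 form the SOXE group, of which Sox10 is needed for the SC lineage and for the myelin programme, and Sox9 drives cartilage genes and takes part in the neural crest. Sox2, of the SOXB1 group, holds back myelination in immature SCs. Sox4 and Sox11 belong to the SOXC group of progenitor and neuronal development. Sox5 and Sox6 belong to the SOXD group, which has no activation domain of its own and modulates SOXE factors.

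The stretch of the HMG box most alike in the 8 genes is printed to show what the members share and how the groups within the family differ. It is the 27-base window of the Sox10 coding sequence, read in frame, with the highest summed identity to the best window of each other member, taken from the GENCODE vM1 transcripts on build mm9 (NCBIM37). Capitals mark the 20 bases that are the same in all 8 genes, and each window lies in a coding exon.
Sox10, chr15:78993802-78993828, minus strand: CCcATGAAcGCcTTcATGGTgTGGgCa
Sox9, chr11:112644220-112644246, plus strand: CCcATGAAcGCcTTcATGGTgTGGgCg
Sox8, chr17:25707138-25707164, minus strand: CCcATGAAtGCcTTcATGGTgTGGgCa
Sox2, chr3:34549473-34549499, plus strand: CCcATGAAcGCcTTcATGGTaTGGtCc
Sox4, chr13:29044681-29044707, minus strand: CCcATGAAcGCcTTtATGGTgTGGtCg
Sox11, chr12:28027094-28027120, minus strand: CCcATGAAcGCcTTcATGGTgTGGtCc
Sox5, chr6:143789764-143789790, minus strand: CCaATGAAtGCcTTcATGGTgTGGgCg
Sox6, chr7:122633247-122633273, minus strand: CCaATGAAtGCgTTcATGGTtTGGgCa
Sox8 and Sox9 match Sox10 at 26 of the 27 bases, Sox11 at 25, Sox2, Sox4 and Sox5 at 24 and Sox6 at 23. The longest run of identical bases between any 2 of the longest coding sequences was 48 bases for Sox4 and Sox11 and 44 bases for Sox9 and Sox10, and a read that lies wholly inside such a run cannot be assigned to one of the pair. The read length is not given in the sources used here.

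In the annotation of mm9, Sox2, Sox4 and Sox11 are single-exon genes of 2457, 4795 and 2013 bases, whereas Sox5 spans chr6:143776945-144730497 with 14376 exon bases and Sox6 spans chr7:122614858-123182258 with 8852. Sox2 lies inside an intron of the long non-coding RNA Sox2ot on the same strand, with no exon base in common. A long intergenic RNA, Gm17419, is annotated on the opposite strand over 2616 of the exon bases of Sox4, which is 54.6% of them. Smart-seq2 does not mark strand, so reads of such a partner and of Sox4 cannot be told apart, and Gm17419 has no row of its own in the counts.

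The pooled libraries held from 11435463 to 22617054 counts on genes and the single-nerve libraries from 9240883 to 22426128. Levels are given as CPM, which is the count scaled by the TMM-adjusted library size. The pooled and the single-nerve libraries were scaled separately, so CPM set across the experiments are not on one common scale. Scaled by total gene counts without the TMM adjustment, a count of 0 allows up to 0.133 to 0.325 CPM, according to the library. This covers counting error only, and these limits are not on the TMM scale of the other CPM. In single-nerve iSC replicate 1 the limit was 0.325 without the adjustment, whereas 2 counts of Sox5 were 0.359 CPM with it. All 8 members passed the filter on low counts in both experiments. Of 376 member values 29 were 0, and 16 of these 29 were of Sox11. None of the 4 SC markers examined (S100b, Ngfr, Erbb3 and Cdh19) was at 0 throughout any group, but markers of other cells were present too. In the pooled libraries the 7 fibroblast markers summed to between 10900 and 55560 CPM in iSCs, and the 7 macrophage markers to between 157 and 4239 CPM in iSCs, 7968 and 13008 CPM in dSCs and 2008 and 5767 CPM in bSCs. In material of this kind, fewer cells of a type and less RNA per cell cannot be told apart. Each experiment was fitted once with edgeR (quasi-likelihood test), with Benjamini-Hochberg adjustment over 13751 genes in the pooled and 15519 in the single-nerve libraries, and a gene was called at an adjusted p under 0.05. The labels give the single-nerve libraries of a region and day to different animals.

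Per kilobase of exon, Sox10 was the member with the highest median in pooled iSCs (130 CPM per kilobase, from 80.9 to 155), in pooled bSCs (42.9, from 23.2 to 80.6) and in the single-nerve dSCs and bSCs (26.1 and 22.8). It was followed in pooled iSCs by Sox9 (14.2, from 5.97 to 44.8) and Sox8 (7.41, from 5.03 to 10.4). There Sox10 stood clear of Sox9, while Sox9 and Sox8 overlapped. In pooled dSCs Sox9 (50.1, from 29.3 to 62.1) and Sox10 (44.0, from 25.4 to 66.9) overlapped over most of their range. In single-nerve iSCs Sox9 (13.1, from 6.48 to 16.4) and Sox10 (11.5, from 7.78 to 39.3) overlapped as well. They also overlapped in single-nerve dSCs (Sox10 from 2.53 to 61.3, Sox9 from 3.16 to 48.2) and bSCs (Sox10 from 2.86 to 61.25, Sox9 from 4.24 to 24.9). By day, Sox9 had the highest median in dSCs on days 2 and 4 and in bSCs on day 4. Sox11 was last by median in pooled iSCs, pooled dSCs, single-nerve iSCs and single-nerve dSCs, at no more than 0.395 CPM per kilobase.

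**Figure D1:**
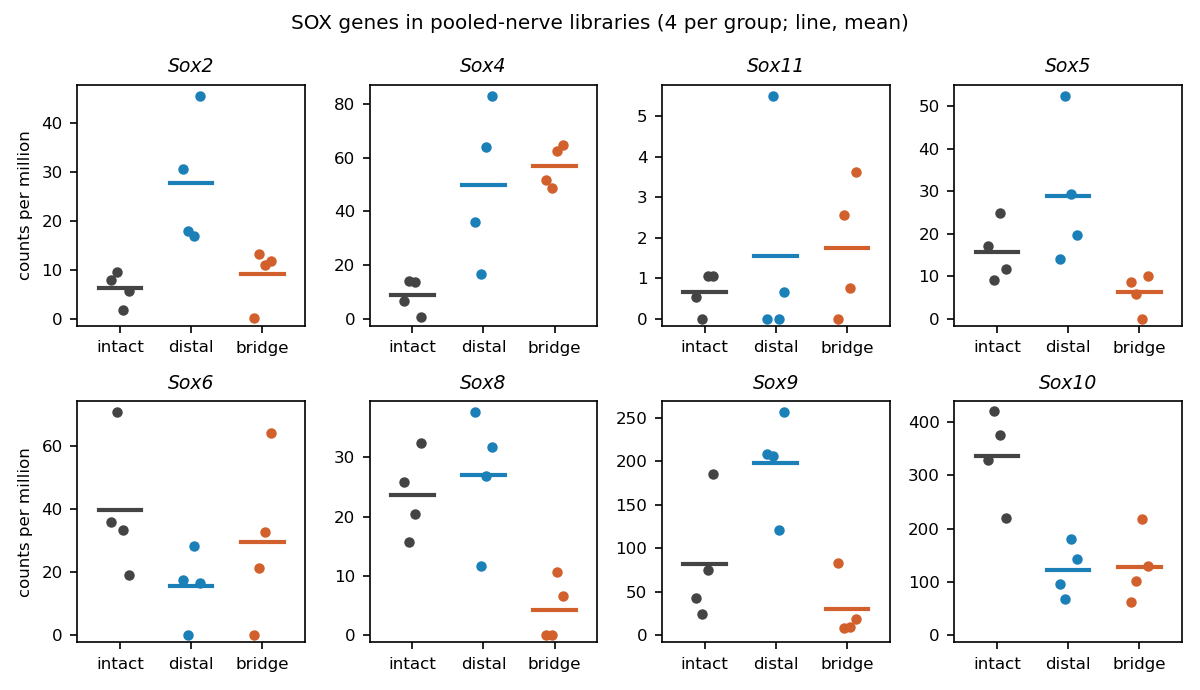
Level of each SOX gene in CPM (vertical axis, linear, own scale per gene) in the 12 pooled-nerve libraries, with 4 libraries each of intact, distal and bridge SCs (points) and their mean (line). All intact libraries lie above all injured ones for Sox10 and below all of them for Sox4, and the bridge libraries lie below all distal ones for Sox2, Sox5, Sox8 and Sox9.

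Sox10 fell after transection in the pooled libraries, in both regions. The iSC libraries held 329, 422, 375 and 220 CPM, the dSC libraries 96.4, 69.0, 182 and 143 CPM, and the bSC libraries 63.0, 103, 219 and 130 CPM. No dSC or bSC library reached the lowest iSC library, although the highest bSC library (219 CPM) came close to it (220 CPM). The fitted level was 2.75-fold lower in dSCs (log2 difference -1.46, SE 0.39, edgeR adjusted p = 0.0471) and 2.62-fold lower in bSCs (-1.39, SE 0.39, edgeR adjusted p = 0.0302), 2 comparisons that share the iSC libraries. Between bSCs and dSCs the difference was 0.07 (95% interval -0.76 to 0.90, edgeR adjusted p = 0.948). Sox10 was the only 1 of the 8 members called in dSCs against iSCs, where 5.32% of all genes tested were called, and with Sox4 one of the 2 called in bSCs against iSCs, where the share was 14.7%.

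These calls of Sox10 lie close to the threshold. With the pool number as a block, which the labels give as the animals of a pool, the difference in dSCs was -1.74 with an edgeR adjusted p = 0.0528. Leaving out iSC replicate 1, 2 or 4 or replicate 1, 2 or 5 of the injured group ended the call in either region, with log2 differences between -1.71 and -1.26 in dSCs and between -1.74 and -1.15 in bSCs over all libraries left out, and adjusted p up to 0.133 and 0.0748.

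In the single nerves Sox10 was not called in any comparison. The 5 iSC libraries held 29.2, 40.0, 31.2, 107 and 21.1 CPM. These were below every pooled iSC library, but CPM of the experiments are not on one common scale. In iSC replicates 0 and 1 the 10 highest genes held 39.8 and 41.9% of the counts. In iSC replicates 3, 4 and 5 they held 6.50, 8.90 and 8.03%. After its own filter the paper included fewer intact single nerves than these 5. The 18 dSC libraries ran from 6.85 through a median of 70.8 to 166 CPM and the 12 bSC libraries from 7.77 through 61.8 to 166 CPM. The injured groups surrounded the intact one on both sides. The mean of dSCs over days 1 to 10 differed from iSCs by 0.50 (SE 0.46, edgeR adjusted p = 0.674) and that of bSCs over days 4 to 10 by 0.47 (SE 0.48, edgeR adjusted p = 0.633). At day 6, the time of the pooled libraries, the 3 dSC libraries held 166, 112 and 102 CPM, a log2 difference of 1.47 from iSCs (SE 0.63, edgeR adjusted p = 0.325). The pooled and single-nerve libraries thus gave Sox10 differences of opposite sign at day 6, and the difference between the experiments was not tested.

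Like Sox10, the 4 SC markers had a lower summed CPM in single-nerve than in pooled iSCs, with each experiment scaled separately. The sum of the 4 markers ranged from 501 to 1337 CPM in pooled iSCs and from 108 to 434 CPM in single-nerve iSCs. These CPM are not on one common scale, and the difference was not tested. In the pooled injured libraries the 4 went different ways, with a sum of 830 to 2247 CPM in dSCs and 581 to 1233 CPM in bSCs. Ngfr rose in both regions, Erbb3 fell in dSCs (log2 difference -2.12, edgeR adjusted p = 0.0454), and S100b and Cdh19 fell in bSCs (-3.31 and -1.60, edgeR adjusted p = 0.00804 and 0.0219). The median difference of the 4 was -1.19 in dSCs and -1.35 in bSCs. The 7 endothelial markers summed to between 128 and 589 CPM in pooled iSCs and to between 1355 and 3592 CPM in single-nerve iSCs, again on separate scales. The part of either marker list in the levels of Sox10 was not tested. The 3 genes whose log2 CPM followed Sox10 most closely over the 35 single-nerve libraries were Plxnb3 (Pearson r = 0.86), Ank3 (0.79) and Cdh19 (0.78), and over the 12 pooled libraries their correlations were 0.80, 0.48 and 0.82. These are descriptions over libraries that share regions, depth and cell make-up.

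Most of the genes that Sox10 is known to activate fell in the pooled libraries. Of 10 such genes, 9 were tested in the pooled libraries, and 5 fell and 0 rose in either region against iSCs. Mbp, Pmp22 and Egr2 fell in both regions, Mag and Erbb3 in dSCs, and Gjb1 and S100b in bSCs. Erbb3 and S100b are also among the SC markers above, so the lists share these genes. The median log2 difference of the 9 was -3.34 in dSCs and -3.31 in bSCs, against medians over all genes of -0.02 and -0.16. Pmp22, a protein of compact myelin, had 17375 to 43814 CPM in iSCs and 287 to 1440 CPM in dSCs (log2 difference -5.60, edgeR adjusted p = 0.000516). Mbp, a myelin basic protein gene, had 4592 to 15302 CPM in iSCs and 225 to 2134 CPM in dSCs (-3.34, edgeR adjusted p = 0.0402). Egr2, the transcription factor that works with Sox10 on myelin genes, fell by 3.43 on the log2 scale in dSCs (edgeR adjusted p = 0.000583) and by 2.22 in bSCs (edgeR adjusted p = 0.00200).

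In the single nerves, where Sox10 was not called, 2 of the 10 genes fell in dSCs (Mbp and Pmp22). In bSCs 3 fell (both of these and S100b) and 1 rose, Ednrb, the endothelin B receptor of early glia, by 1.57 on the log2 scale (SE 0.51, edgeR adjusted p = 0.0495). Pmp22 was 3.72 lower on the log2 scale in bSCs than in iSCs (SE 0.40, edgeR adjusted p = 9.26e-07) while the difference of Sox10 was 0.47. Of 4 cofactors of Sox10 (Smarca4, Hdac1, Hdac2 and Med12), Smarca4, the ATPase of a chromatin remodelling complex, rose in pooled bSCs against iSCs (1.12, SE 0.28, edgeR adjusted p = 0.0174), and no other was called in the 3 pooled and the 3 averaged single-nerve comparisons.

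Sox9 had the largest fitted difference of the 8 members between bridge and distal SCs of the pooled libraries. The pooled dSC libraries held 208, 206, 121 and 257 CPM, the bSC libraries 83.7, 8.77, 9.96 and 18.7 CPM, and the iSC libraries 42.9, 24.7, 74.6 and 185 CPM. Every bSC library was below every dSC library, and the iSC libraries overlapped both. The level in bSCs was 6.53-fold below that in dSCs (log2 difference -2.71, SE 0.76), with an edgeR adjusted p = 0.0542 that missed the threshold. Without bSC replicate 1, whose 83.7 CPM stands apart from the other 3, the differences were -4.00 from dSCs (edgeR adjusted p = 0.00752) and -2.69 from iSCs (edgeR adjusted p = 0.0129), and DESeq2 called the first also with that library (adjusted p = 0.00277).

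In bSCs against dSCs of the pooled libraries 0 of the 8 members were called by edgeR, where 5.43% of all genes were, and 2 had an unadjusted p under 0.05, Sox9 and Sox5. The groups did not overlap for 4 members, Sox2, Sox5, Sox8 and Sox9, all lower in bSCs, against 15.4% of all genes. In dSCs against iSCs the groups did not overlap for 3 members against 17.0% of all genes, and in bSCs against iSCs for 3 against 25% of all genes. The median difference of the 8 members between bSCs and dSCs was -0.77, and that of all genes was -0.07.

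The single nerves gave Sox9 a smaller difference in the same direction. Averaged over days 4 to 10, Sox9 was 2.04-fold lower in bSCs than in dSCs (log2 difference -1.03, SE 0.33), with an unadjusted p of 0.00426 from edgeR and an edgeR adjusted p = 0.219. DESeq2 called this difference (-1.07, adjusted p = 0.0355). The bSC libraries ran from 17.5 to 103 CPM with a median of 36.9, and the dSC libraries of all days from 13.1 to 199 CPM with a median of 72.8. The 5 iSC libraries (26.8, 48.8, 68.0, 62.9 and 54.3 CPM) lay within both ranges, with averaged differences of 0.46 in dSCs (edgeR adjusted p = 0.671) and -0.24 in bSCs (edgeR adjusted p = 0.822). In 9 of the 10 animals that gave both regions Sox9 was lower in the bridge, by a mean of 1.18 on the log2 scale (SD 1.23). By day the fitted differences were 0.10, -1.61, -1.17 and -1.44 on days 4, 6, 8 and 10, with no call on any of them and no call for an interaction of region and day (edgeR adjusted p = 1.0).

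None of the 8 members was called in the averaged comparison of bSCs with dSCs, in which 16 genes or 0.103% of all were called, and Sox9 alone had an unadjusted p under 0.05. By day, 0 members were called either, against 0, 0.00644, 0 and 0.0129% of all genes on days 4, 6, 8 and 10. The interaction of region and day called 0 of the 15519 genes (0%) with edgeR, and 488 had an unadjusted p under 0.05.

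**Figure D2:**
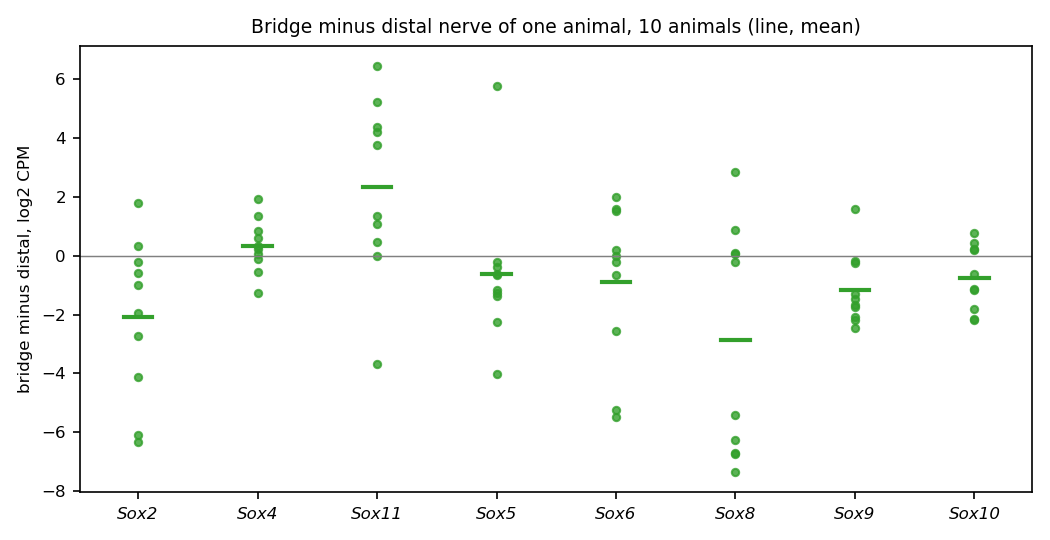
Difference in log2 CPM between the bridge and the distal stump of the same animal (vertical axis) for each SOX gene in the single-nerve libraries, with 1 point for each of 10 animals and a line at the mean. Sox9 lies below 0 in 9 of 10 animals and Sox5 in 9 of 10, while Sox4 lies below 0 in 3 of 10.

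Of 10 cartilage genes that Sox9 is known to activate, 4 passed the filter in the pooled libraries. Col2a1, the collagen chain of cartilage, had 8.53 to 19.9 CPM in iSCs, 174 to 316 CPM in dSCs and 0 to 4.53 CPM in bSCs. The groups were fully separated, and the gene rose in dSCs against iSCs by 4.17 on the log2 scale (SE 1.06, edgeR adjusted p = 0.0370) and was lower in bSCs than in dSCs by a difference of -7.89 (SE 1.27, edgeR adjusted p = 0.00545). Comp, a matrix protein of cartilage and tendon, was at 0 in all 4 bSC libraries, at 12.4 to 60.2 CPM in dSCs and at 1.42 to 73.7 CPM in iSCs, and was called lower in bSCs than in dSCs (edgeR adjusted p = 0.00657). The other 2 genes tested were not called in these 3 comparisons. In the single nerves 8 of the 10 were tested, and 0 were called in bSCs against dSCs and 3 (Col9a2, Comp and Hapln1) fell in bSCs against iSCs.

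Most fibroblast markers were lower in the bridge of the pooled libraries, as Sox9 was, and the single nerves were less uniform. In pooled bSCs against dSCs the median log2 difference of the 7 markers was -2.42, and 1 of the 7 had a positive difference. Of the 7, 2 were called lower and 0 were called higher. The 2 were Dcn and Lum, small proteoglycans of fibroblasts (log2 differences of -2.87 and -3.25, edgeR adjusted p = 0.00917 and 0.00925). The 7 summed to between 19311 and 35017 CPM in bSCs and between 33776 and 48875 CPM in dSCs. Dcn was also lower in bSCs of the single nerves averaged over days 4 to 10 (-1.15, SE 0.21, edgeR adjusted p = 0.0232), the 1 marker called there, and 3 of the 7 had a positive difference. At day 6 of the single nerves the sum was higher in bSCs (44770 to 55406 CPM) than in dSCs (26512 to 38437 CPM), opposite to Sox9. At day 10 it was lower in bSCs (17054 to 25620 CPM) than in dSCs (35614 to 42414 CPM), and on days 4 and 8 the regions overlapped. The part of fibroblasts in the level of Sox9 was not tested. The genes most like Sox9 over the 35 single-nerve libraries were Gadd45a (r = 0.79), Wif1 (0.78) and E230016M11Rik (0.77), with correlations of 0.66, 0.71 and 0.62 over the pooled libraries.

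Sox8, the third SOXE gene, was lower in the bridge by level but not by test. Pooled iSC libraries held 25.8, 15.7, 20.4 and 32.5 CPM and dSC libraries 37.6, 11.8, 26.8 and 31.7 CPM, whereas bSC libraries held 0.0448, 0, 10.7 and 6.62 CPM. All bSC libraries were below all others, and the difference from dSCs was -2.63 (SE 1.28, edgeR adjusted p = 0.256). In the single nerves 9 of 12 bSC libraries and 6 of 18 dSC libraries were below the lowest of the 5 iSC libraries (7.70 CPM), and 6 bSC libraries had at most 3 counts. The averaged difference of bSCs from iSCs was -1.88 (SE 1.2, edgeR adjusted p = 0.374), and it became -4.35 with a call (edgeR adjusted p = 0.0299) without bridge replicate 2 of day 8, a library with 26.6 CPM. Libraries with 0 counts beside libraries above 20 CPM within a day limit what can be said of this gene. Its level over the single-nerve libraries was most like those of Casq2 (r = 0.83), Abca8a (0.71) and Fxyd6 (0.70), with pooled correlations of 0.75, 0.82 and 0.60.

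Sox2, which restrains myelination, had its highest pooled levels in dSCs, without passing the test. The pooled dSC libraries held 30.5, 18, 17.0 and 45.5 CPM, the iSC libraries 7.86, 9.60, 1.82 and 5.72 CPM and the bSC libraries 0.224, 13.2, 11 and 11.9 CPM. The dSC libraries were above all the others without overlap. The difference of dSCs from iSCs was 2.15 (SE 0.96, edgeR adjusted p = 0.275) and that of bSCs from dSCs was -1.61 (SE 0.94, edgeR adjusted p = 0.357), so neither passed. Across the single nerves Sox2 ranged from 0 to 11.9 CPM in iSCs, from 0 to 44.0 CPM in dSCs and from 0 to 47.2 CPM in bSCs, and 8 of 18 dSC libraries and 3 of 12 bSC libraries exceeded the highest iSC library. The averaged differences from iSCs were 1.65 in both regions (edgeR adjusted p = 0.499 in dSCs and 0.425 in bSCs).

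Sox2ot, the non-coding RNA around Sox2, had 8.86 to 40.8 CPM in pooled iSCs, 7.57 to 21.1 CPM in dSCs and 0 to 5.99 CPM in bSCs. In these libraries it was not highest in dSCs, as Sox2 was. At day 6 of the single nerves Sox2ot had 13.7 to 74.1 CPM in dSCs and 10.5 to 42.3 CPM in bSCs against 0.102 to 14.4 CPM in iSCs, and its mean was highest in dSCs, like that of Sox2. The genes most like Sox2 over the single-nerve libraries were Gpc1 (r = 0.81), Met (0.78) and Ngfr (0.77), but over the pooled libraries these correlations were 0.33, 0.05 and 0.31. Ngfr, the p75 neurotrophin receptor of immature and repair SCs, was among 7 regulators and markers of the immature state (Jun, Pax3, Id2, Id4, Ngfr, Notch1 and Egr1), of which 6 were tested. It was the 1 of them that rose, in the pooled dSCs and bSCs (2.65 and 1.95 on the log2 scale, edgeR adjusted p = 0.00560 and 0.0116) and in the single-nerve averages (3.24 and 2.92, edgeR adjusted p = 0.00570 and 0.00645). Egr1, an immediate early gene, fell in both pooled comparisons (-2.18 and -2.44, edgeR adjusted p = 0.0421 and 0.0122), and no other was called.

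Sox4 rose after transection, and it was the 1 member of the 8 called in both experiments. The pooled iSC libraries held 6.77, 14.1, 13.6 and 0.564 CPM, the dSC libraries 36.1, 16.7, 64.0 and 83.1 CPM and the bSC libraries 51.8, 48.9, 62.4 and 64.6 CPM. All injured libraries were above all intact ones. In bSCs Sox4 was 6.48-fold higher than in iSCs (log2 difference 2.70, SE 0.74, edgeR adjusted p = 0.0266), and in dSCs 5.69-fold higher (2.51, SE 0.73) with an edgeR adjusted p = 0.0685 that missed the threshold. With the pool number as a block the call in bSCs was lost (2.93, edgeR adjusted p = 0.137), as it was without iSC replicate 1 or bSC replicate 5 (edgeR adjusted p = 0.0728 and 0.0519). The difference in dSCs was called without iSC replicate 5, the library with 0.564 CPM (2.14, edgeR adjusted p = 0.0284), and by DESeq2 (adjusted p = 0.00725).

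**Figure D3:**
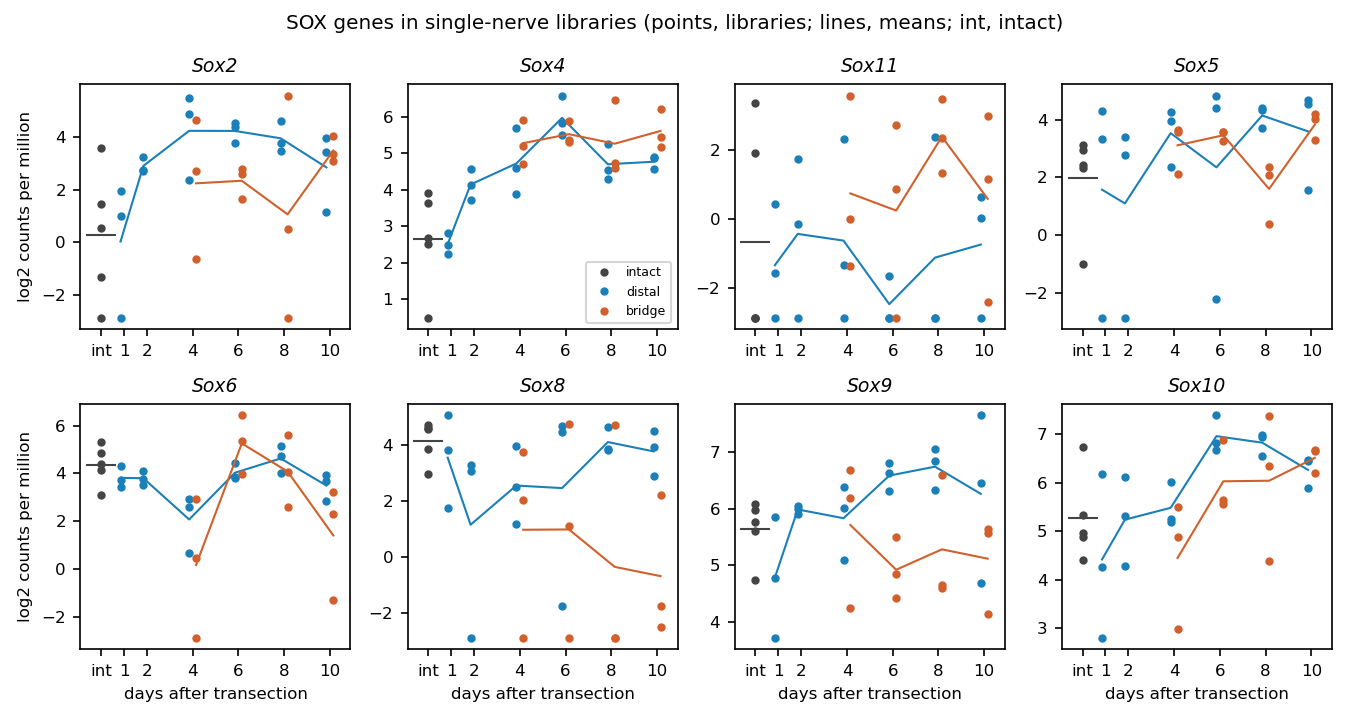
Level of each SOX gene in log2 CPM (vertical axis, prior count 2) in the 35 single-nerve libraries by day after transection (horizontal axis, int for intact nerves), with points for libraries and lines for means of intact (grey), distal (blue) and bridge (orange) SCs. For Sox4, all 12 bridge libraries and 13 of 18 distal libraries lie above the highest intact library.

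The single nerves showed the same rise of Sox4, with levels that varied by day without an edgeR call among the days. The letter of the animal names coincided in part with the day. All libraries of days 1 and 4 had letter A, all of day 8 had letter B, and iSCs had letters A and C. Day and letter cannot be told apart there. The 5 iSC libraries held 5.58, 1.26, 12.3, 14.8 and 6.27 CPM. In dSCs the 3 libraries held 5.44, 6.85 and 4.58 CPM on day 1, 17.4, 13.0 and 23.7 CPM on day 2, 24.1, 51.1 and 14.5 CPM on day 4, 95.3, 44.7 and 57.1 CPM on day 6, 38.3, 19.3 and 23.1 CPM on day 8 and 29.4, 23.4 and 28.8 CPM on day 10. The dSC libraries thus lay within the intact range on day 1 and above it without overlap on days 6, 8 and 10. In bSCs they held 36.6, 60.3 and 25.9 CPM on day 4, 39.3, 41.2 and 59.0 CPM on day 6, 26.2, 24.1 and 87.7 CPM on day 8 and 43.0, 36.0 and 74.4 CPM on day 10. The bSC libraries were above every iSC library on each of these days.

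Averaged over days 4 to 10, Sox4 was 5.69-fold higher in bSCs than in iSCs (log2 difference 2.51, SE 0.51, edgeR adjusted p = 0.00263), and it was the 1 of the 8 members called there, where 9.34% of all genes were. This call held in each alternative run and without any 1 of 17 libraries, with adjusted p between 0.00292 and 0.0104 over the libraries left out. In dSCs averaged over days 1 to 10 Sox4 was 2.84-fold higher (1.51, SE 0.46) with an edgeR adjusted p = 0.0592. That value passed without iSC replicate 4 (edgeR adjusted p = 0.0464), without dSC replicate 0 of day 2 (edgeR adjusted p = 0.0496) and with DESeq2 (adjusted p = 0.00453). There 0 of the 8 members were called by edgeR against 4.29% of all genes, with 1 member at an unadjusted p under 0.05.

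By day, Sox4 was called in dSCs on day 6 (log2 difference 3.02, SE 0.60, edgeR adjusted p = 0.0110) and in bSCs on days 4, 6 and 10 (2.34, 2.53 and 2.66, edgeR adjusted p = 0.0369, 0.0262 and 0.0190), and on day 8 it was 2.51 with an edgeR adjusted p = 0.0595. No other member was called on any day. The shares of all genes called in dSCs were 0.180% on day 1, 0.445% on day 2, 1.73% on day 4, 0.554% on day 6, 0.303% on day 8 and 0.354% on day 10, and in bSCs they were 1.57, 1.33, 0.303 and 1.30% on days 4, 6, 8 and 10. These daily calls rest on 3 libraries against 5. The call in dSCs was lost without dSC replicate 0 of day 6 (edgeR adjusted p = 0.101), and each of the 3 in bSCs was lost without iSC replicate 0 (edgeR adjusted p = 0.0711, 0.0599 and 0.0536). The call of day 4 was also lost without iSC replicate 5 or bSC replicate 0 or 1, that of day 6 without bSC replicate 0, 1 or 3, and that of day 10 without iSC replicate 5 or bSC replicate 0 or 3, with edgeR adjusted p up to 0.180, 0.0890 and 0.169. Day 8 was called without iSC replicate 4 (edgeR adjusted p = 0.0397). Without the 3 libraries with the fewest detected genes (10042 to 10572), which are iSC replicates 0 and 1 and dSC replicate 0 of day 2, the daily calls were lost and the averaged call in bSCs stayed (2.02, edgeR adjusted p = 0.0185).

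Sox4 was not shown to differ between bSCs and dSCs, with differences of 0.19 (95% interval -1.31 to 1.68) in the pooled and 0.41 (-0.28 to 1.10) in the single-nerve libraries. A test for differences among the 6 days in dSCs gave Sox4 an unadjusted p of 0.00163 and an edgeR adjusted p = 0.329, with 0 of the 8 members and 0.0644% of all genes called. DESeq2's likelihood ratio test called it (adjusted p = 1.23e-05). Among the 4 days of bSCs 0 of the 15519 genes (0%) were called by edgeR, 1217 had an unadjusted p under 0.05, and Sox4 had an unadjusted p of 0.973 from the edgeR test.

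Of 3 genes that SOXC factors are known to activate, Dcx did not pass the filter. Tubb3, a tubulin best known from neurons, had 0.303 to 8.28 CPM in pooled iSCs, 42.9 to 88.9 CPM in dSCs and 100 to 308 CPM in bSCs. The groups followed one another without overlap, with differences from iSCs of 3.80 (SE 0.70, edgeR adjusted p = 0.00734) and 5.06 (SE 0.74, edgeR adjusted p = 0.000755). Tead2, a factor of the Hippo pathway, was 1.50 and 1.77 higher on the log2 scale without a call (edgeR adjusted p = 0.215 and 0.0700). Tubb3 was also called in single-nerve bSCs (2.65, SE 0.86, edgeR adjusted p = 0.0466) but not in dSCs (2.15, SE 0.81, edgeR adjusted p = 0.131). The genes most like Sox4 over the 35 single-nerve libraries were Tnc (r = 0.82), Mmp14 (0.80) and Sema4f (0.80), with pooled correlations of 0.77, 0.48 and 0.85. All 7 macrophage markers were called higher in the single-nerve averages of dSCs and bSCs against iSCs. Their sum was 221 to 901 CPM in iSCs, 1912 to 11585 CPM in dSCs and 750 to 11030 CPM in bSCs. On day 1, when Sox4 in dSCs was within the intact range, the sum in dSCs was 1949 to 4729 CPM. In pooled bSCs, where Sox4 was called, 0 of the 7 were called against iSCs, but all 7 had a positive difference, with a median of 1.40 on the log2 scale. The sum in the pooled libraries was 157 to 4239 CPM in iSCs, 2008 to 5767 CPM in bSCs and 7968 to 13008 CPM in dSCs. The part of macrophages in the level of Sox4 was not tested.

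Sox11, the other SOXC gene among the 8 members, was at 0 in 16 of the 47 libraries and was called in no comparison. Pooled iSC libraries held 0.545, 0, 1.06 and 1.05 CPM, dSC libraries 0, 5.51, 0 and 0.671 CPM and bSC libraries 0, 2.56, 0.773 and 3.63 CPM. Single-nerve libraries ranged from 0 to 10.2 CPM in iSCs, from 0 to 5.10 CPM in dSCs and from 0 to 11.8 CPM in bSCs, with at most 3 counts in 3 of 5, 10 of 18 and 3 of 12. Single-nerve bSCs exceeded dSCs by 2.65 on the log2 scale (SE 1.35, edgeR adjusted p = 0.598), and Sox11 was higher in the bridge in 8 of the 10 animals, lower in 1 and at 0 in both regions in 1. Its highest correlations over the single nerves, with Samd9l (0.60), Tfg (0.54) and Kif11 (0.54), were the weakest of the 8 members, and over the pooled libraries they were -0.11, 0.50 and 0.14.

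Sox5 and Sox6, the SOXD pair among the 8 members, were called by edgeR in no comparison. Sox5 had 17.2, 9.14, 25 and 11.8 CPM in pooled iSCs, 14.1, 52.5, 29.3 and 19.7 CPM in dSCs and 8.78, 5.92, 0.0859 and 10.1 CPM in bSCs. Its bSC libraries were below all dSC libraries, with a difference of -2.21 (SE 0.94, unadjusted p = 0.0344 and adjusted p = 0.186 from edgeR). In 9 of 10 animals of the single nerves Sox5 was lower in the bridge, but the remaining animal differed by 5.77 on the log2 scale the other way and the averaged difference was -0.93 (SE 0.73, edgeR adjusted p = 0.878). Sox5 was above the highest of the 5 iSC libraries (8.65 CPM) in 12 of 18 dSC and 8 of 12 bSC libraries, with averaged differences of 1.22 and 0.66 (edgeR adjusted p = 0.604 and 0.771). Its closest genes over the single nerves were Rcsd1, Ttbk2 and Trp53bp2 (r = 0.80 each), of which Rcsd1 had a correlation of 0.79 over the pooled libraries and the others 0.18 and -0.07.

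Sox6 had 36.0, 70.9, 33.4 and 19.3 CPM in pooled iSCs, 17.5, 0.0672, 28.5 and 16.7 CPM in dSCs and 0, 21.3, 32.9 and 64.3 CPM in bSCs, and these groups overlapped, with differences from iSCs of -1.35 in dSCs and -0.43 in bSCs (edgeR adjusted p = 0.762 and 0.879). Over the single nerves it varied most by day in bSCs, with 7.40, 1.26 and 0 CPM on day 4, 15.9, 40.7 and 86.0 CPM on day 6, 16.6, 5.86 and 48.6 CPM on day 8 and 4.81, 9.20 and 0.269 CPM on day 10. The 3 libraries of day 4 were below those of day 6 without overlap. The edgeR test among days gave an unadjusted p of 0.00449 and an adjusted p = 0.607. On day 4 Sox6 was below every iSC library in bSCs (-3.00, SE 1.12, edgeR adjusted p = 0.192) and in dSCs (-2.21, SE 1.07, edgeR adjusted p = 0.297), and DESeq2 called the first (adjusted p = 0.0141). Nr4a2 (r = 0.78), Atp1b2 (0.77) and Rasl12 (0.76) were the genes most like Sox6 over the single nerves, and their pooled correlations were 0.26, 0.11 and -0.02.

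**Figure D4:**
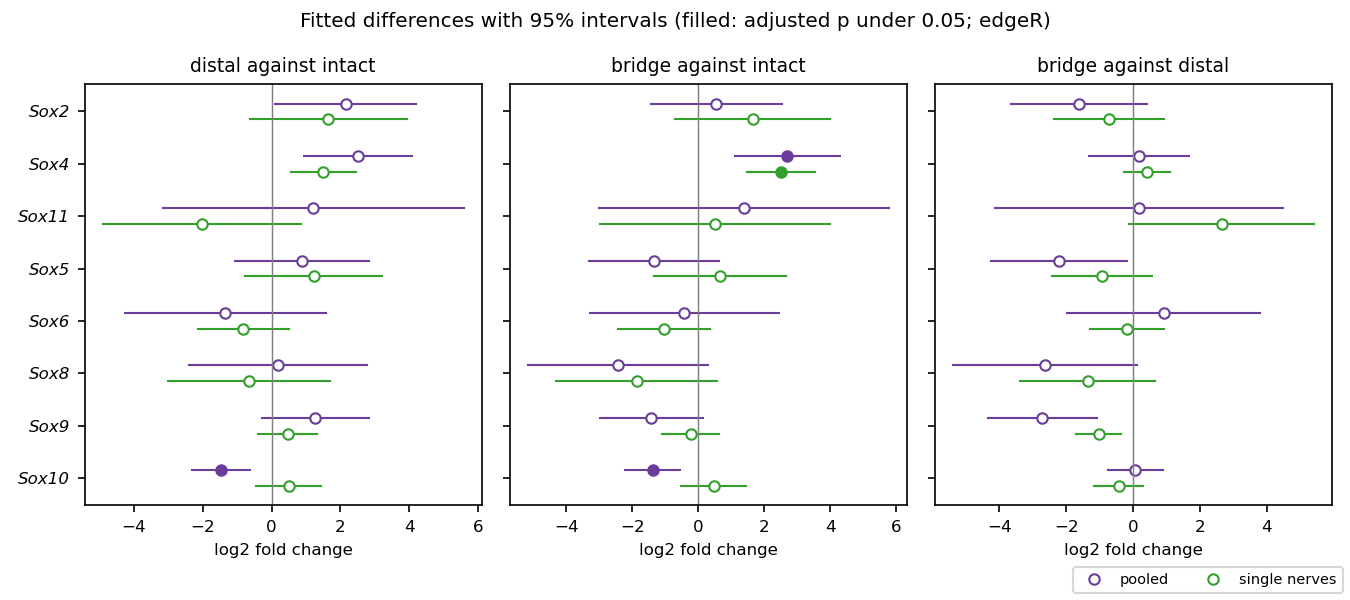
Fitted log2 fold changes (horizontal axis) of each SOX gene for distal against intact, bridge against intact and bridge against distal SCs, with 95% intervals (lines), in pooled libraries (purple) and averaged over days in single-nerve libraries (green). Filled points are called at an adjusted p under 0.05, which are Sox10 and Sox4 in the pooled libraries and Sox4 in the single nerves.

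Among themselves, the members varied together only in part. Over the 35 single-nerve libraries the highest correlations of log2 CPM were between Sox2 and Sox10 (r = 0.61), Sox2 and Sox9 (0.58) and Sox2 and Sox4 (0.58), and over the 12 pooled libraries the same pairs had 0.01, 0.11 and 0.19. The pooled libraries had their highest values for Sox6 and Sox10 (0.73) and Sox5 and Sox9 (0.67), which were 0.39 and 0.23 over the single nerves. The highest pairs of one experiment were thus not those of the other.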

How the data were processed

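The authors deposited raw counts per gene, without normalization, from Smart-seq2 reads that they mapped to mm9 with TopHat2 2.0.11 and counted with HTSeq. HTSeq's annotation and strand setting are not given in the sources used here. Samples were grouped by the labels. HTSeq's own categories (no feature, ambiguous and the like) and 92 ERCC spike-ins were set aside, and lanes were added up for each library. Between lanes the chi-square divided by its degrees of freedom was at most 1.30, and between replicates at least 46.2. Of the uniquely aligned reads, 39.1 to 47.1% were assigned to a gene.

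The 8 members, the gene lists and the tests were chosen with earlier results of these data known, so they are no independent support for a pattern. Differential expression used edgeR 4.0.16 in R 4.3.3 with TMM normalization, filterByExpr (minimum count 10), the quasi-likelihood test and Benjamini-Hochberg adjustment over all genes tested, after a run on simulated counts. CPM values are TMM-scaled, except for the limits for 0 counts, and log2 CPM used a prior count of 2. The study's filter (100 counts in 85% of libraries) was an alternative, since it removes members that are low in one region. Others were DESeq2 1.42.0, its size factors in edgeR, no filter, only the groups compared, covariates for lanes and for the letter of the animal names, leaving out each library, and a replicate block. Leaving out the 3 libraries with the fewest detected genes, the 10 pairs with no block and the other settings for single days were chosen after seeing the data. The labels give the same animals to bridge and distal libraries of 10 single-nerve pairs, whose deviations from the group means correlated with a mean r of 0.157 (-0.060 for other pairs), and to the pooled libraries of one number (means of 0.035, -0.028 and -0.067). The pairs leave out a day 10 bridge library with different animals in its label and file name. Named genes were all 8 members, up to 4 called genes per list with the largest change, the other SOX genes and SOXC targets, and the 3 genes most correlated with each member (mean log2 CPM of at least 3). The fitted SEs and intervals hold the spread between libraries of a group as well as counting error. The limits for 0 counts cover counting error only, and PCR copies are not independent molecules. Coordinates and sequences are from GENCODE vM1 on NCBIM37. The 6 rat samples were not used. Some genes of the lists are not reported here.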

Additional observations from a re-analysis of the deposited data

Results flagged for a closer look

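Of 32 combinations of a member with a group of 4 or 5 libraries, 4 had a library whose gap to the nearest other, divided by the range, was above Dixon's 95% critical value. Chance flags about 1 in 20 groups of normally distributed values. The ratios were taken on untransformed CPM, some of them near 0, for which that rate may not hold. Sox9 in pooled bSC replicate 1 (83.66 CPM, ratio 0.867) stood above the other 3 libraries of 8.77 to 18.7 CPM, and without it Sox9 was called lower in bSCs than in both other regions, as given above. Sox11 in pooled dSC replicate 2 had 5.509 CPM (ratio 0.878), and without it the difference of dSCs from iSCs changed sign from 1.22 to -1.53, neither of them called. In single-nerve iSCs, Sox10 in replicate 4 had 106.5 CPM (ratio 0.779) and Sox2 in replicate 0 had 11.86 CPM (ratio 0.781). Without replicate 4 the averaged difference of Sox4 in dSCs was called, and that of Sox10 was not called without any of the libraries.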

How the results depend on the processing

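The number of the 8 members called was 1, 2 and 0 in the pooled comparisons (dSCs with iSCs, bSCs with iSCs, bSCs with dSCs) and 0, 1 and 0 in the averaged single-nerve ones. With the replicate block of the pool number it was 0 in dSCs and 1 in bSCs against iSCs, and the block changed no other call of a member. Under it the differences of Sox11 (-1.57) and Sox8 (-0.28) in dSCs and of Sox11 in bSCs (-0.063) changed sign without a call. DESeq2 called 2 members in pooled dSCs, 1 in pooled bSCs against dSCs, 1 in single-nerve dSCs, 1 in single-nerve bSCs against dSCs, 1 among the days of dSCs, and 2 and 5 over the days of dSCs and bSCs, where edgeR made 1 and 3. The study's filter and a covariate for the animal-name letter each gave 1 call in averaged dSCs, and the letter gave 2 over the days of dSCs. Without the 3 libraries of fewest genes the calls over the days were 0 in dSCs and 0 in bSCs. Single-nerve bSCs against iSCs changed sign without a call for Sox11 (-1.44 with the letter, -0.29 without the 3 libraries) and Sox9 (0.38 with the letter), and Sox6 did between bSCs and dSCs (0.49) over the 10 pairs with no replicate block. The animal block over those pairs called 0 members and 0 genes, as did the pairs with no block. Leaving out 1 library gave between 0 and 2 members called in pooled dSCs, 0 and 2 in pooled bSCs, 0 and 1 between them, 0 and 1 in single-nerve dSCs, 1 and 2 in single-nerve bSCs, and 0 and 1 and 0 and 4 over the days. Signs then turned for Sox11 (-1.53 to 1.63) and Sox8 (-0.011 to 0.44) in pooled dSCs, Sox6 in pooled bSCs (-1.14 to 0.013), Sox10 (-0.30 to 0.32), Sox11 (-0.48 to 2.91) and Sox4 (-0.10 to 0.55) between pooled bSCs and dSCs, Sox11 in single-nerve bSCs (-0.27 to 2.07), and Sox4 between bSCs and dSCs on day 8 (-0.16 to 1.06), none of them called. Over all genes the pooled counts of 732, 2022 and 746 were 287, 968 and 236 with the block and 1393, 3114 and 1939 with DESeq2, and that of bSCs against dSCs was 485 with only those groups. The single-nerve counts were 665, 1449 and 16, of which the first was 256 without the 3 libraries and 1129 with DESeq2, the second 723 with the study's filter, 656 with the letter and 541 with only those groups, and the third between 0 and 583. The cause of these changes was not tested. Among results of single genes under other settings 371 kept their direction and side of the threshold, 7 changed sign, 10 gained and 6 lost a call, and with 1 library left out 760, 14, 7 and 27 did. Values of 0 to 3 counts limit Sox11, Sox8, Sox6, Sox5 and Sox2 in single libraries.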

Other observations

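Of 12 further SOX genes in the count files, 6 passed the filter in both experiments (Sox7, Sox12, Sox13, Sox15, Sox17 and Sox18), and Sox1, Sox3, Sox14, Sox21, Sox30 and Sry did not. Sox7, Sox17 and Sox18 form the SOXF group of endothelial cells. Sox17 had 78.7 to 129 CPM in single-nerve iSCs and fell in dSCs averaged over days 1 to 10 (log2 difference -2.58, SE 0.66, edgeR adjusted p = 0.0238), with every dSC library below every iSC library. Cldn5, a tight junction protein of endothelial cells and 1 of the 7 endothelial markers, fell as well (-3.42, SE 0.44, edgeR adjusted p = 2.51e-05), and the summed endothelial markers ranged from 1355 to 3592 CPM in iSCs and from 227 to 1622 CPM in dSCs. Their part in the level of Sox17 was not tested. In pooled iSCs Sox17 ranged from 0 to 32.1 CPM. Sox18 had 15.7 to 75.9 CPM in pooled bSCs, 4.17 to 12.2 CPM in dSCs and 2.50 to 12.7 CPM in iSCs, without a call. Sox13, the third SOXD gene, had 10.8 to 23.1 CPM in pooled iSCs, 8.94 to 22.1 CPM in dSCs and 3.43 to 16.2 CPM in bSCs.

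Of 12 neural crest factors, 8 were tested. Ets1 rose in pooled bSCs against iSCs (2.37, SE 0.50, edgeR adjusted p = 0.00686) and was higher than in dSCs (2.09, SE 0.50, edgeR adjusted p = 0.0295), and it is also expressed in endothelial cells, whose markers summed to between 151 and 777 CPM in bSCs and 116 and 293 CPM in dSCs. In the single nerves Ets1 overlapped between all regions. Msx1 fell in single-nerve bSCs against iSCs (-2.48, SE 0.69, edgeR adjusted p = 0.0223). Of 4 melanocyte genes, which share Sox10 as a regulator, Tyrp1 was called lower in both single-nerve averages (edgeR adjusted p = 0.0118 and 0.00429), with 0 to 55.1 CPM in iSCs and 0 in 12 of 18 dSC and 10 of 12 bSC libraries. Of 6 mural cell markers, Acta2 fell in single-nerve bSCs (-1.66, SE 0.48, edgeR adjusted p = 0.0281).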
